A study of Mus musculus with 69 samples.

Results

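Allele-specific RNA-seq values were compared between the C57 and the SPRET copy of each gene in unstimulated bone marrow-derived macrophages (BMDMs) of F1 mice, which carry 1 chromosome set of each strain. A gene entered the comparison if the mean of its 4 basal values, 1 per allele in each of 2 libraries, was at least 5 TPM, a read count scaled to gene length and to the total of its column, and 8638 of 24527 listed genes (35.2%) did. The lowest mean among these genes was 5.0 and the highest among the others was 4.999. Both alleles were above 0 in both libraries for 8444 of the 8638 genes, and 194 had at least 1 value listed at 0.

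The F1 mice were offspring of C57BL/6J (C57), a common laboratory strain, and SPRET/EiJ (SPRET), a strain of wild origin from the species Mus spretus, and the labels do not say which strain was the mother. Per the study's methods, all mice were females aged 8 to 12 weeks, and the labels state 7 days of differentiation with M-CSF, the growth factor that turns bone marrow cells into macrophages. Basal F1 cells received no IL-4, a type 2 cytokine, and 2 further F1 libraries came from cells given 20 ng/ml IL-4 for 24 hours. The parents were unstimulated C57 and SPRET BMDMs, with 3 libraries each in a table of 5 strains and 2 each in a time course. No transgene or deletion was present in any of these groups. Whether the 2 libraries of a group came from different animals or from pooled animals is not given in the sources used here, beyond being called biological replicates, so p-values measure the spread between these libraries.

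In an F1 cell, both copies of a gene meet the same nuclear proteins, hormones and culture conditions. A variant that acts on the copy that carries it, such as one in a promoter or an enhancer (a cis effect), leaves the 2 copies unequal in the F1 cell. A difference in a diffusible regulator (a trans effect) is seen by both copies alike, and separates the parents without separating the alleles. Genomic imprinting, which silences the copy from 1 parent, and X inactivation, which silences 1 X chromosome per female cell, also set the balance of alleles.

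The basal libraries carried the RNA of macrophages. All 10 macrophage markers passed the level rule, among them the M-CSF receptor Csf1r (859 and 970 on the C57 allele, 942 and 1024 on the SPRET allele), and their values, averaged over alleles, summed to 39030 and 41474. Of the markers of neutrophils, T cells, B cells, mast cells, stromal cells, erythroid cells and dendritic cells, 1 passed, the neutrophil gene S100a8, and these lists summed to at most 31.0 per library. Each allele column was scaled to its own total by the authors, so that the values show how the alleles differ from gene to gene but not whether 1 genome gave more RNA in all. The values step in whole multiples of 1 unit, from which 4689000 to 5432000 counts per allele column were recovered in the basal libraries, with a median of 952.5 per gene over both alleles and both libraries. In the second IL-4 library the SPRET column held 11140000 recovered counts against 5368000 on the C57 side, a ratio of 2.08 where the other 3 libraries had 0.97. That library enters the estimate of the spread, the naming of the genes with the largest differences and the comparison with IL-4, and the overall counts of calls are therefore also given without it.

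Most genes were expressed at similar levels from both alleles. The log2 difference, C57 minus SPRET allele of log2(value + 1), was within 1.5-fold for 82.1% of the genes and within 2-fold for 90.3%. A gene was called when limma, fitted across all 8638 genes on the 4 F1 libraries, gave an adjusted p below 0.05 and the mean basal difference was beyond 2-fold. By this rule 623 genes (7.21%) differed between the alleles, 261 with the C57 allele higher (3.02%) and 362 with the SPRET allele higher (4.19%). Without the second IL-4 library the counts were 290 and 381, and 608 of the 623 genes were called again. Without basal library 1 the fit called 63 genes and without basal library 2 it called 68, with the difference resting on 1 basal library and the spread on the IL-4 pair. Without either IL-4 library, the basal difference stays the same and the spread rests on the basal pair. In the fit on all 4 libraries, a further 613 genes reached an adjusted p below 0.05 with a difference under 2-fold. Another 211 differed beyond 2-fold in the mean without being called.

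The differences were large for a minority. Of the called genes, 85 on the C57 side and 153 on the SPRET side differed beyond 4-fold, and 27 and 72 beyond 8-fold. Both basal libraries showed a difference beyond 2-fold in 230 of the 261 and in 321 of the 362 genes. The median gap between the 2 basal libraries was 0.118 on the log2 scale, and it depended on depth. The gap had a median of 0.716 in the 540 genes with under 100 recovered counts, 0.163 in the 3930 genes with 100 to 1000 counts and 0.082 in the 4168 genes with 1000 counts or more. Calls were made for 13.52%, 8.47% and 5.21% of these genes, respectively. Of the called genes, 18 on the C57 side and 24 on the SPRET side had under 20 counts in a basal library.

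**Figure D1:**
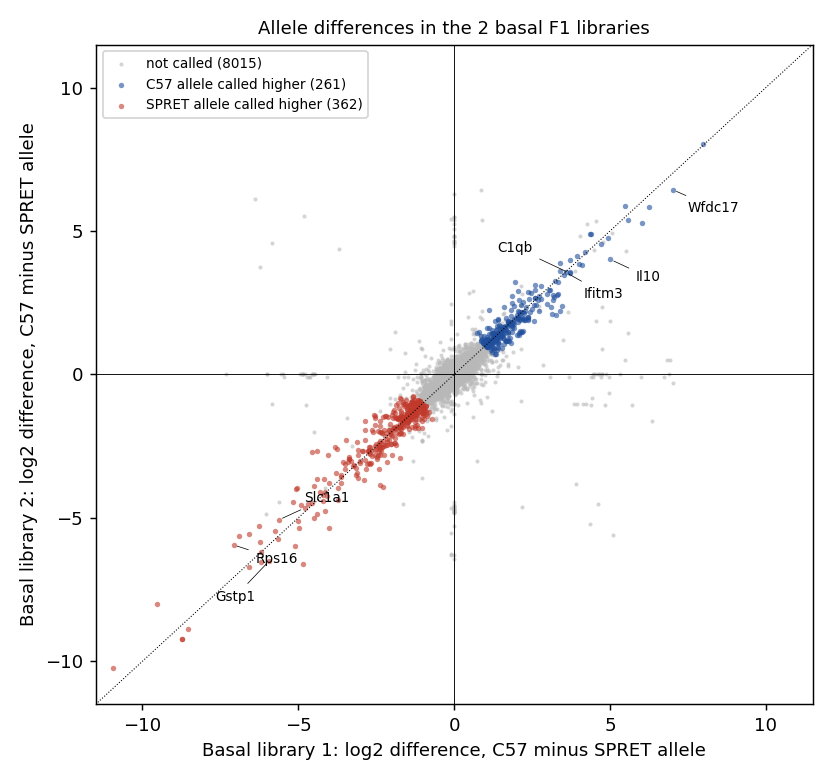
Log2 difference between the C57 and the SPRET allele in basal library 1 (x axis) and basal library 2 (y axis), 1 point per gene for all 8638 genes. Blue points are the 261 genes with the C57 allele called higher and red points the 362 genes with the SPRET allele called higher. The called genes lie along the dotted line of equality, and the points near either axis far from it are genes with a difference in 1 library only.

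**Figure D2:**
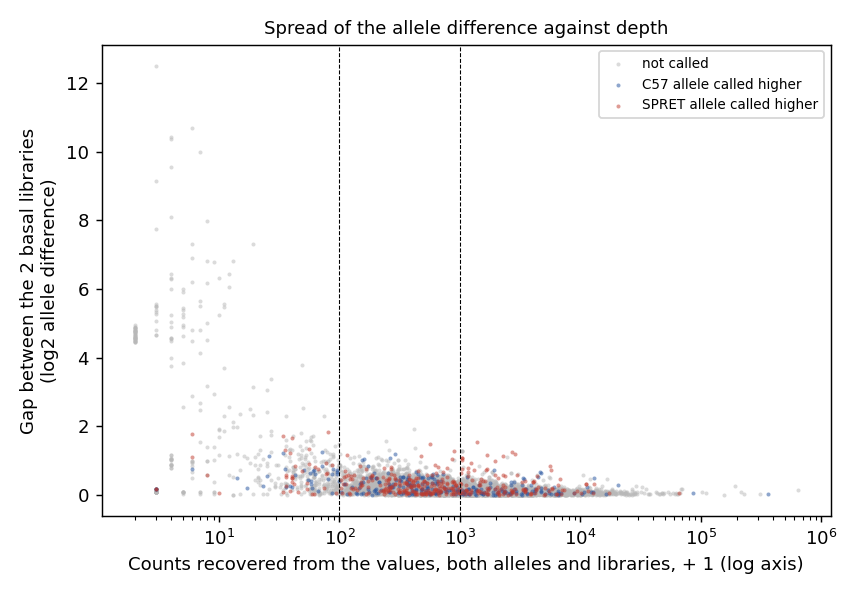
Absolute gap between the 2 basal libraries in the log2 allele difference (y axis) against the counts recovered from the values over both alleles and libraries, plus 1, on a log axis (x axis), 1 point per gene, with dashed lines at 100 and 1000. The median gap falls from 0.716 below 100 counts to 0.082 at 1000 counts or more.

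The largest called difference toward C57 by the selection rule was that of Wfdc17. This gene, which encodes a small secreted protease-inhibitor-like protein of macrophages, had C57 values of 232 and 263 and SPRET values of 0.782 and 2.06. Here and below, ± gives the limma SE, which rests on the spread within all 4 F1 libraries. For Wfdc17 the log2 difference was 7.03 and 6.43 in the basal libraries, and 6.32 and 2.03 in the IL-4 libraries. Its basal mean was 6.73 ± 1.07 (n = 2 basal libraries, limma adjusted p = 0.032). Its neighborhood on chromosome 11 holds the chemokine gene Ccl6 (mm10 position 83587886 to 83593087), with C57 values of 282 and 319 and SPRET values of 20.31 and 25.95, and Ccl9, another CC chemokine gene, with 560 and 743 against 176 and 253. These alleles did not overlap in either gene, and the log2 differences were 3.65 ± 0.44 for Ccl6 (limma adjusted p = 0.019) and 1.61 ± 0.14 for Ccl9 (limma adjusted p = 0.012).

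The 3 genes of complement C1q, the protein that starts the classical complement pathway, lie next to each other on chromosome 4, and all had a higher C57 allele. C1qa was read at 51.0 and 49.9 on the C57 allele and 3.55 and 3.63 on the SPRET allele. C1qb was read at 226 and 231 against 16.4 and 19.1, and C1qc at 297 and 299 against 33.9 and 38.0. The log2 differences were 3.49 ± 0.285, 3.62 ± 0.48 and 3.02 ± 0.49 (limma adjusted p = 0.011, 0.023 and 0.033). C3, the central complement protein, was also called (1.37 ± 0.15 on the log2 scale). In all, 4 of the 13 complement genes tested were called with the C57 allele higher and none with the SPRET allele higher, beside 3.02% and 4.19% of all genes tested.

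Fc receptor and uptake genes followed. Fcgr1, the high-affinity receptor for IgG, had C57 values of 28.9 and 32.9 and SPRET values of 2.04 and 3.98, a log2 difference of 3.04 ± 0.31 (limma adjusted p = 0.015). Fcgr2b, the inhibitory IgG receptor, had 64.1 and 57.4 against 14.6 and 13.5, with a parental log2 difference of -0.97 that was not called. Fcgr4, another activating IgG receptor gene, had 19.3 and 20.0 against 6.87 and 7.14. These were 3 of 7 Fc receptor genes, and among 16 scavenger and dead-cell uptake genes 3 were called, in each case toward C57, where 3.02% of all genes were called. Mfge8, a bridging protein that links dying cells to phagocytes, had 159 and 185 against 38.1 and 39.5. Gas6, the ligand of the uptake receptor MERTK, had 84.2 and 83.3 against 19.6 and 21.0. Cd163, the hemoglobin scavenger receptor, had 11.4 and 12.4 against 1.27 and 0.879. In none of these genes did an allele's values reach those of the other allele.

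**Figure D3:**
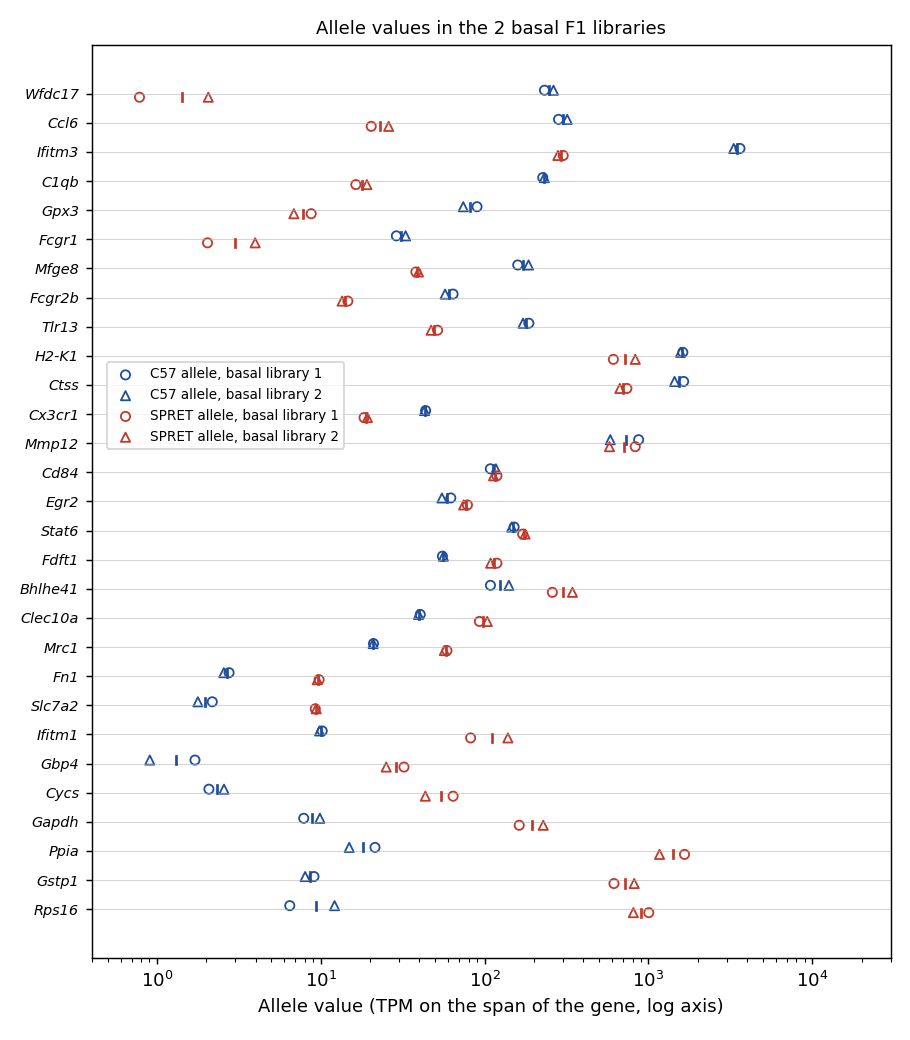
Allele values of 29 genes named by the selection rule, on a log axis in TPM over the span of the gene, with blue for the C57 and red for the SPRET allele. Circles are basal library 1, triangles basal library 2 and vertical ticks the mean of both. Genes from Wfdc17 to Cx3cr1 have a higher C57 allele, Mmp12, Cd84, Egr2 and Stat6 were not called, and genes from Fdft1 to Rps16 have a higher SPRET allele.

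The called genes of antigen presentation and pathogen sensing gave smaller differences, and their counts are read against the 7.21% called over all genes. In MHC class I presentation 2 of 16 genes were called, and the list median of -0.054 was that of all genes tested. The classical MHC class I gene H2-K1 had C57 values of 1620 and 1569 and SPRET values of 610 and 830, a log2 difference of 1.16 ± 0.14 (limma adjusted p = 0.020), and the nonclassical H2-T23 differed by 1.33 ± 0.10. In MHC class II presentation, 2 of 9 genes were called, the lysosomal protease Ctss, which trims the invariant chain (1639 and 1443 against 738 and 669), and H2-Eb1 (28.5 and 26.1 against 13.0 and 11.9). Of 18 Toll-like receptor and adaptor genes, 1 was called, close to the share over all genes. The called gene was X-linked Tlr13, a sensor of bacterial ribosomal RNA, with C57 values of 186 and 172 and SPRET values of 51.6 and 47.1. Cx3cr1, the fractalkine receptor, was the called gene among 9 chemoattractant receptors (43.6 and 43.0 against 18.4 and 19.3). The C-type lectin genes were divided. Clec4n and Clec4d had a higher C57 allele (log2 differences of 1.82 and 1.35), whereas Mrc1, the mannose receptor, and Clec10a had a higher SPRET allele (-1.42 and -1.27).

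The interferon-inducible genes did not share a direction. Ifitm3, which blocks entry of viruses through endosomes, was read at 3617 and 3314 on the C57 allele and 302 and 280 on the SPRET allele, a log2 difference of 3.57 ± 0.47 (limma adjusted p = 0.022). Ifitm2 and Ifitm6 were also higher on the C57 allele, by 1.68 ± 0.19 and 2.81 ± 0.55. Ifitm1, in the same cluster on chromosome 7, was read the other way, at 10.2 and 9.82 on the C57 allele against 82.1 and 139 on the SPRET allele. Of 31 interferon-stimulated genes, 4 were called toward C57 and 3 toward SPRET, beside 3.02% and 4.19% of all genes tested. The median log2 difference of the 31 genes was 0.016, beside -0.054 over all genes tested. The GTPase Gbp4, which acts on intracellular microbes, had C57 values of 1.71 and 0.904 and SPRET values of 32.2 and 25.1. In the parents, on another scale, it reached at most 0.236 TPM in C57 and 0.202 TPM in SPRET in the table of 5 strains. In the time course it was higher in SPRET (0.935 to 1.64 TPM against 0.082 to 0.098 TPM). Gbp9 and the DNA sensor family gene Ifi204 were higher on the SPRET allele as well (-1.51 ± 0.21 and -1.15 ± 0.14). The Ifitm, H2, Gbp, Ccl and Fcgr genes belong to families of close copies, and how the counting divided reads between copies is not given in the sources used here.

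Several genes with large differences toward SPRET encode ribosomal proteins or enzymes that all cells use. Rps16, a protein of the small ribosomal subunit, had C57 values of 6.46 and 12.1 and SPRET values of 1004 and 809, a log2 difference of -6.51 ± 0.47 (limma adjusted p = 0.0093). Ppia, which encodes cyclophilin A, had 21.4 and 14.9 against 1659 and 1168, and Gapdh, a glycolytic enzyme, had 7.87 and 9.87 against 163 and 228. Gstp1, a glutathione transferase, had 9.09 and 8.02 against 616 and 818. Of the 12 genes with the largest called differences toward SPRET by the selection rule, 7 encode ribosomal proteins. On the C57 side Rps19 (131 and 170 against 4.08 and 6.26), Rpl39 and Rps3a1 did so among 12.

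Ribosomal protein genes are known for many processed pseudogenes, copies of the mRNA in the genome whose sequence is nearly that of the parent gene, and the allele values of such genes are uncertain because reads can match a copy. Of 80 ribosomal protein genes tested, a set chosen after values were seen, 35 were called toward SPRET and 7 toward C57, or 52.5% beside 7.21% of all genes tested. Their median absolute log2 difference was 1.85, against 0.20 over all genes. Of 172 other genes after which a pseudogene is named in GENCODE vM21 or in the table, 21 were called toward SPRET and 10 toward C57 (18.02%). Cycs, encoding cytochrome c, Pgam1 and Pgk1 were in this group (log2 differences of -4.02, -4.04 and -2.12). The part of these copies in the allele values was not tested. Of 58 genes annotated as pseudogenes, 17 were called toward SPRET and 5 toward C57 (37.93%). Leaving out all ribosomal protein genes and genes with a named copy before the fit gave 243 genes toward C57 and 306 toward SPRET among 8386. Annotated pseudogenes such as Rpl32l stayed in, so this set is not free of genes with copies.

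Some genes had values on 1 allele only. The SPRET allele was listed at 0 in both basal libraries for 15 genes and the C57 allele for 13, of which 10 and 10 were called, and 9 and 8 were small RNAs or shorter than 500 bases. Il10, encoding an anti-inflammatory cytokine, had C57 values of 31.4 and 15.1, a SPRET allele listed at 0 in both libraries and 153 recovered counts. Gstm3, a glutathione transferase gene, had SPRET values of 21.5 and 31.0 with the C57 allele listed at 0. Timm8a1, an X-linked gene of mitochondrial protein import, had SPRET values of 12.9 and 9.70 and no C57 value above 0, from 39 recovered counts. Slc1a1, a glutamate transporter gene, and Adgrd1, an adhesion receptor gene, were close to this pattern, with 0.041 and 0.200 on the C57 allele against 50.0 and 39.2 for Slc1a1, and 17.9 and 18.6 against 0.016 and 0.014 on the SPRET allele for Adgrd1. Values in the F1 table are scaled by a length that is the whole stretch from gene start to end for 99.5% of genes, introns included, so they are not on the same scale as the parental TPM. Both genes were listed at 0 in all 6 basal libraries of the parents in the table of 5 strains. There, Il10 was at 0 to 0.744 TPM in C57 and 0.051 to 0.213 TPM in SPRET, and was not called. Gstm3 was at 0.074 to 0.280 TPM in C57 and 0.165 to 0.349 TPM in SPRET, and was not tested. Timm8a1 was higher in SPRET, at 8.53 to 9.29 TPM against 1.23 to 2.12 TPM. Of the 623 called genes, 56 were not tested in that table. Of these, 20 were not listed there, 9 were at 0 in all 6 libraries and 27 were under its level filter.

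The IL-4 receptor and its targets were also read before stimulation. Of 12 genes of the IL-4 receptor and STAT6 signaling, 1 was called, beside 7.21% of all genes tested. Socs2, a feedback inhibitor of cytokine receptors, had C57 values of 1.71 and 0.378 and SPRET values of 10.96 and 10.4, from 55 recovered counts. Stat6, the transcription factor activated by IL-4, had 151 and 146 against 171 and 177, a log2 difference of -0.22 ± 0.09 (limma adjusted p = 0.20). Of 14 IL-4 target genes, 4 were called toward SPRET and 1 toward C57, and the median absolute log2 difference of the list was 0.716, against 0.204 over all genes. Slc7a2, which imports arginine (chromosome 8, mm10 position 40862367 to 40922070), had C57 values of 2.18 and 1.78 and SPRET values of 9.25 and 9.37, a log2 difference of -1.80 ± 0.20 (limma adjusted p = 0.016). Fn1, encoding fibronectin, had 2.76 and 2.56 against 9.76 and 9.51, and Mrc1 had 21.0 and 20.9 against 58.9 and 56.7. The crosslinking enzyme gene Tgm2 was the one with a higher C57 allele (15.8 and 16.6 against 5.83 and 5.46). The transcription factor genes Egr2 (-0.38 ± 0.09, limma adjusted p = 0.061), Pparg (-0.23, adjusted p = 0.26), Klf4 (-0.10, adjusted p = 0.63) and Irf4 (0.21, adjusted p = 0.44) were not called. Arg1 and Msx3 were below the level rule, at a mean of 0.288 from 9 recovered counts and at 0.

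Lineage, lysosomal, cell cycle and energy genes are also read against the 7.21% over all genes. Among 29 macrophage lineage factors, Bhlhe41 (109 and 141 on the C57 allele against 259 and 343) and Rxra, the partner of several nuclear receptors (7.51 and 7.96 against 19.4 and 17.9), were called, both toward SPRET. Of 38 lysosomal genes, Ctss was the 1 called gene. Of 30 cell cycle and DNA replication genes, limma called 0, and Mki67, a marker of proliferation, was read at 148 and 109 against 164 and 138. Of 69 genes of oxidative phosphorylation 6 were called and of 20 genes of glycolysis 4, with the SPRET allele higher in all 6 and in 3 of the 4. These included Atp5g1, Cycs, Gapdh, Pgam1 and Pgk1, genes with log2 differences from -2.12 to -4.30. Hk3, a hexokinase of myeloid cells, was the glycolytic gene with a higher C57 allele (146 and 179 against 44.5 and 56.7). Lyz2, encoding macrophage lysozyme, had 42810 and 41068 against 17813 and 16678, a log2 difference of 1.28 ± 0.10 (limma adjusted p = 0.0098). Lyz1, its close paralog, named after values were seen, went the other way, at 480.5 and 396 against 11345 and 8936, and how reads were divided between these copies is not given in the sources used here.

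More genes were called between the parents than between the alleles, in fits that differ in power. Of the 8205 genes that were also tested in the table of 5 strains, 627 were called higher in C57 (7.64%) and 689 higher in SPRET (8.4%), beside 9.52% and 8.58% of all genes tested in that table. Their median log2 differences were 1.57 and -1.42 between the parents, and 0.52 and -0.58 between the F1 alleles. Of the 627 genes, 24.9% were called toward C57 in the F1 cells, and 302 had alleles within 1.5-fold of each other. Of the 689 genes, 32.8% were called toward SPRET, and 336 were within 1.5-fold. The parental fit shares its spread over all groups of its table, and the F1 fit over 4 libraries, so counts of calls are not on equal terms. By size alone, 1326 of the 8205 genes were beyond 2-fold between the parents. Between the alleles, 373 genes toward C57 and 461 toward SPRET were beyond 2-fold among 8638, and 211 of these were not called. The F1 table and the parental tables were scaled separately, so that the comparison is of values side by side, without a test. In bulk cultures of the parents, fewer cells of a type and less RNA per cell cannot be told apart, whereas the 2 alleles of an F1 library come from the same cells.

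Read from the F1 side, the agreement in sign was close. Of 567 called genes tested in the parents, 516 (91%) had a parental difference of the same sign, 216 of 236 toward C57 and 300 of 331 toward SPRET. Genes with copies are among them, and reads can match a copy in the parents too. Gapdh was at 1.06 to 1.62 TPM in C57 and 383 to 394 TPM in SPRET parents. Of 42 called ribosomal protein genes, 35 were called the same way in these parents. Of 550 called genes neither ribosomal nor with a named copy, 330 were. The part of copies in the agreement was not tested. Over all genes tested in both, 45.1% were higher in C57 parents and 54.7% higher in SPRET parents. In the time course, where 8.88% of all genes tested were called higher in C57 and 9.92% higher in SPRET, 521 of 580 called genes had the same sign, and 328 genes were called the same way in the F1 cells and in both parental tables, 127 toward C57 and 201 toward SPRET. Across 8205 genes, which are not independent of each other, Pearson's r between the F1 and parental log2 differences was 0.59, and it was 0.68 over the 4050 genes with 1000 recovered counts or more. Among the called genes, which were picked by the F1 difference, the medians were alike in the F1 cells and the parents. They were 1.56 and 1.54 toward C57, and -1.67 and -1.61 toward SPRET. With genes grouped by the parental difference instead, the median allele difference grew with it but stayed smaller, and each way of picking favors the side it picks on. For genes 2 to 3 log2 units higher in the C57 parent it was 0.70, and for those 2 to 3 units higher in the SPRET parent it was -1.37. For the 97 genes beyond 3 units toward C57 it was 1.66, and for the 86 genes beyond 3 units toward SPRET it was -2.65.

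**Figure D4:**
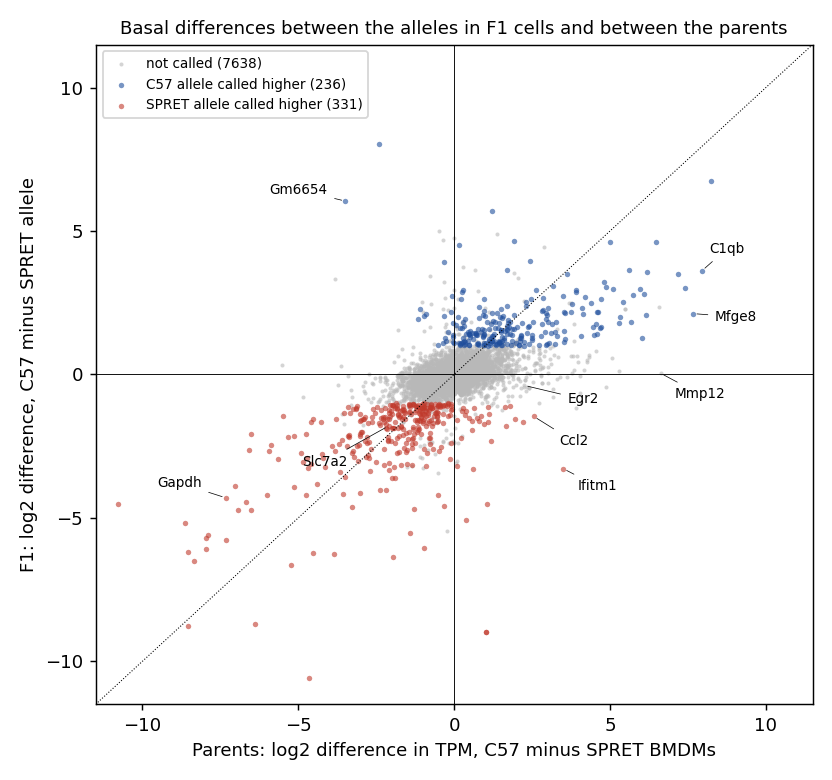
Basal log2 difference between the alleles in F1 cells (y axis) against the basal log2 difference in TPM between C57 and SPRET BMDMs of the table of 5 strains (x axis), 1 point per gene for 8205 genes. Blue and red points are the 236 and 331 genes with a called allele difference, and the dotted line marks equal differences. Most called genes lie in the quadrants of equal sign, and Mmp12, with 6.62 between the parents and 0.04 between the alleles, lies on the horizontal axis.

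Of the genes tested in both, 7210 (87.9%) had an F1 difference within 1 log2 unit of the parental one. Of 1326 genes beyond 2-fold between the parents, 614 were within that band and 656 had an allele difference smaller by more than 1 unit. The 5 genes named for the largest parental differences with alleles within 0.1 log2 units were all higher in the C57 parent. Mmp12, encoding macrophage elastase, had 406 to 444 TPM in 3 C57 libraries and 2.84 to 4.46 TPM in 3 SPRET libraries, while its F1 alleles were read at 871 and 585 (C57) and 830 and 578 (SPRET). Cd84, a receptor of the SLAM family, had 183 to 190 TPM against 9.28 to 11.7 TPM, with F1 alleles at 108 and 117 (C57) and 119 and 113 (SPRET). Oasl2, Procr and Sdc3 followed, with parental log2 differences of 3.77, 3.61 and 3.39 and F1 differences of 0.06, -0.09 and -0.07. Egr2 had 12.5 to 14.5 TPM in C57 and 1.87 to 2.20 TPM in SPRET parents, and F1 values of 62.1 and 54.9 against 78.5 and 74.4.

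Several gene lists had more genes called between the parents than between the alleles, where 7.21% of all genes were called by a fit of other power. Of 31 interferon-stimulated genes, 23 were higher in C57 parents and 0 in SPRET parents by limma, with a median of 1.72, against 4 and 3 calls between the alleles. For example, Rsad2, an antiviral enzyme gene, and Irf7, a regulator of interferon genes, both chosen after values were seen, had parental log2 differences of 5.30 and 3.84 and allele differences of 0.14 and 0.15. Of 24 cholesterol synthesis genes, 15 were higher in SPRET parents, with a median of -1.15, while 2 were called between the alleles, Idi1 (-2.19 ± 0.12) and Fdft1 (-1.02 ± 0.16). Of 30 cell cycle genes, 13 were higher in SPRET parents and 1 in C57 parents, against 0 called between the alleles, where Pcna, the sliding clamp of DNA replication, was read at 219 and 216 against 118 and 121 (limma adjusted p = 0.059). In MHC class I presentation 9 of 16 genes were higher in C57 parents and 2 were called between the alleles, and the peptide transporter gene Tap1, chosen after values were seen, had 2.79 between the parents and -0.01 between the alleles. Of 12 complement genes, 8 were higher in C57 parents and 1 in SPRET parents, and 4 of 13 were called on the C57 allele. The C1q genes differed by 7.18 to 7.96 log2 units between the parents and by 3.02 to 3.62 between the alleles.

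**Figure D5:**
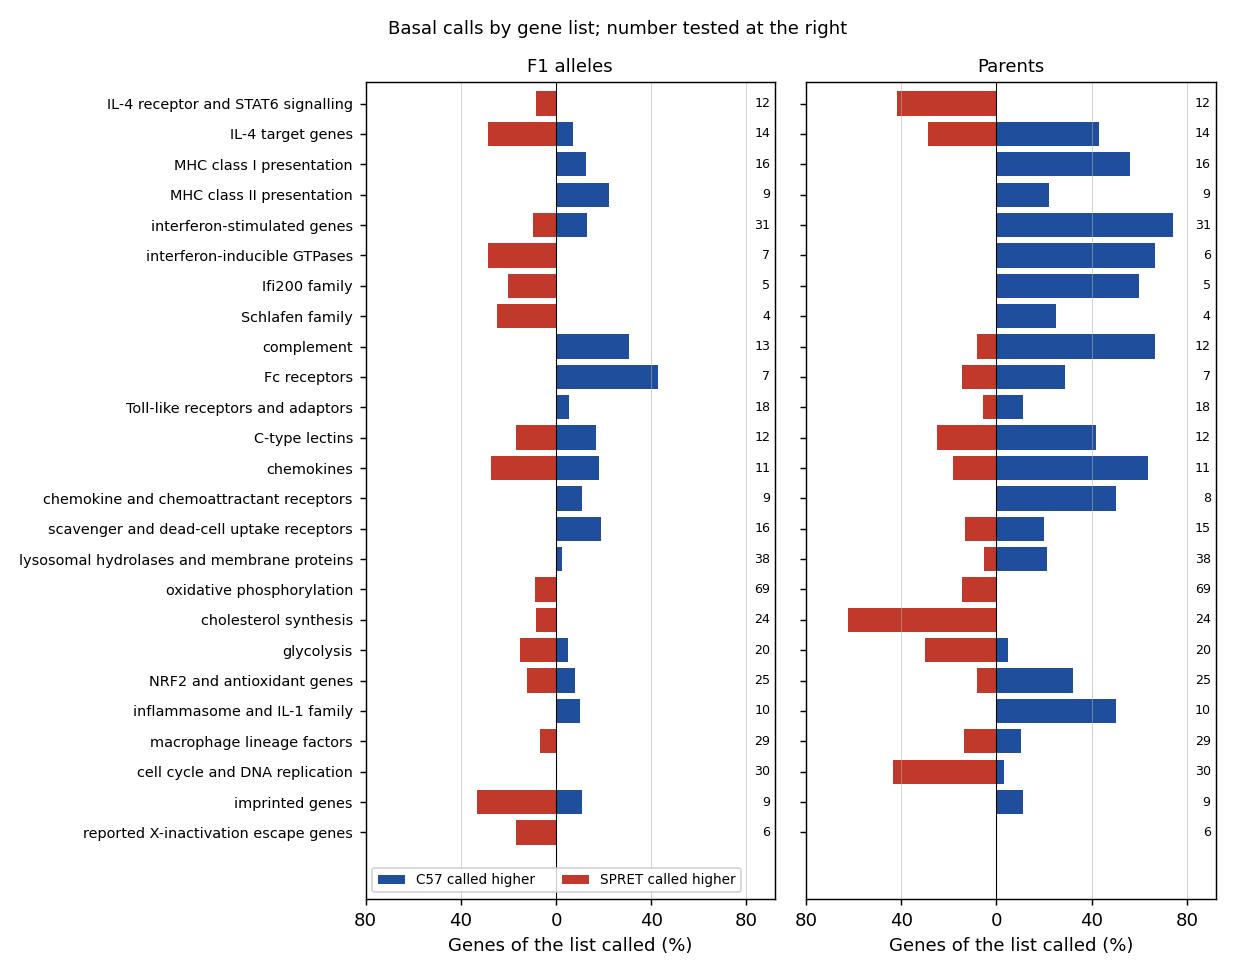
Share of the genes of each of 25 lists that were called, in percent, between the F1 alleles (left) and between the parents in the table of 5 strains (right). Blue bars to the right count genes higher in C57, red bars to the left genes higher in SPRET, and the number of genes tested stands at the right of each panel. Interferon-stimulated, cholesterol synthesis and cell cycle genes have long bars for the parents toward 1 parent (23 of 31, 15 of 24 and 13 of 30), against 7, 2 and 0 genes called between the alleles. The fits behind the panels differ in power.

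Of 9 genes tested in the list of imprinted genes, which also holds the X-inactivation gene Xist, 1 was called toward C57 and 3 toward SPRET. Over all genes tested, 3.02% and 4.19% were. Both alleles were above 0 in each of the 4. H13, Cdkn1c, Gnas and Inpp5f were tested and not called, nor was Xist, which is read with the X chromosome below. The median log2 difference of the list, Xist included, was -0.018. Peg13, expressed from the paternal copy, had C57 values of 14.1 and 11.53 and SPRET values of 104 and 109, whereas the parents had 2.20 to 3.18 TPM and 2.67 to 3.01 TPM. Igf2r, expressed from the maternal copy, had 40.6 and 44.7 against 11.52 and 12.6, with 14.8 to 20.5 TPM in C57 and 16.0 to 16.8 TPM in SPRET parents. Zrsr1 and Impact, both paternally expressed, were higher on the SPRET allele by 1.74 ± 0.16 and 1.61 ± 0.15 log2 units.

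Called genes were spread over the genome. They made up 7.18% of 8397 autosomal genes and 8.3% of 241 genes on the X chromosome, and from 3.66% on chromosome 18 to 10.58% on chromosome 6. The median log2 difference was -0.154 and -0.144 in the 2 basal libraries on the X chromosome, against -0.058 and -0.046 on the autosomes. Xist, the RNA that coats the inactive X chromosome, was read at 223 and 231 on the C57 allele and 187 and 185 on the SPRET allele, and was not called (0.29 ± 0.08, limma adjusted p = 0.10). On the X chromosome 8 genes were called toward C57, led by Rpl39, Tlr13 and Armcx2, and 12 toward SPRET, led by Rtl8a, Rpl36a and Timm8a1. Among neighboring tested genes, 79 pairs had both genes called, and 61 of these pairs (77.2%) shared the direction. Of the 79 pairs, 25 overlapped in position, where reads can count for both genes, and of the other 54 pairs 36 shared the direction. The share for pairs of called genes that are not neighbors was not computed, with 261 genes called toward C57 and 362 toward SPRET. There were 8 runs of 3 neighbors called the same way, 5 toward C57 and 3 toward SPRET, and none was longer. The C1q genes formed 1 run (chromosome 4, 136880145 to 136898844), Ccl9, Ccl6 and the overlapping E230016K23Rik another (chromosome 11, 83572917 to 83623693), and H2-K2, AA388235 and H2-K1 one more (chromosome 17, 33974659 to 34000333). The runs were named after values were seen.

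The remaining lists are read against the 7.21% called over all genes. Of 25 NRF2 and antioxidant genes, 2 were called toward C57 and 3 toward SPRET, the latter led by Gstp1 and the lipid peroxidase gene Gpx4 (-1.34 ± 0.14), the former being Gclm and the abundant glutathione peroxidase gene Gpx1 (1.07 ± 0.13 and 1.028 ± 0.0845). Of 11 chemokine genes, 2 were called toward C57 and 3 toward SPRET, among them the neutrophil attractant gene Cxcl2 (8.76 and 5.62 against 22.1 and 23.1). Naip2 was the 1 called gene of 10 in the inflammasome list (1.01 ± 0.09). Slfn10-ps was the 1 called of 4 Schlafen genes (-1.10 ± 0.13), and Eif2s3x of 6 genes reported to escape X inactivation (-1.17 ± 0.21).

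The IL-4 libraries read the same alleles again, but they also entered the spread by which the 623 genes were called. Their agreement with the basal calls is therefore not independent. Of the 623 genes called in basal cells, 611 had the same sign in the first IL-4 library and 606 in the second. Beyond 2-fold with that sign were 489 and 341, beside 800 and 684 of all 8638 genes beyond 2-fold in either direction. The median size of the difference was 1.65 in basal cells, 1.52 in the first IL-4 library and 1.06 in the second, the library with the unequal columns. Limma called 0 of 8638 genes (0%) for a change of the allele difference with IL-4, and 564 genes (6.53%) had an unadjusted p below 0.05. Of the IL-4 pathway genes with a called basal difference, Socs2 had -2.59 in basal cells and -0.00 and 0.30 in the IL-4 libraries, Mrc1 had -1.42 and then -0.53 and -0.275, and Tgm2 had 1.37 and then 0.21 and 0.40. The change was not called in any of these genes (limma adjusted p = 0.52 for each). Slc7a2 had -1.80 and then -2.01 and -1.29 (limma adjusted p = 0.87), and Fn1 had -1.54 and then -1.65 and -1.21.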

How the data were processed

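Bulk poly(A) RNA-seq of BMDMs was analysed. Per the study's methods, the authors mapped F1 reads with STAR to the mm10 genome and to a SPRET genome made from mm10 with MMARGE and known variants. Transcript counts were then weighted by the share of variant-covering reads from each genome, with a factor of 10, and assigned to the alleles. The authors deposited TPM values, made with HOMER, for each allele and for the parents, and log2 fold changes and p-values of their own DESeq2 comparisons, which were not used here. The labels describe a dUTP library preparation, and the strand setting of the counting is not given in the sources used here. The recovered counts (89.5% to 97.7% of low values whole within 0.05) are weighted, so no counting intervals were made. Parental libraries held 7610000 to 18160000 tags.

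Per library, log2(C57 value + 1) minus log2(SPRET value + 1) was fitted with limma 3.58.1 in R 4.3.3, with a mean per condition, a trended prior and Benjamini-Hochberg adjustment over all 8638 genes. The 2 basal libraries fix the difference, and all 4 libraries share the spread, with 2 residual degrees of freedom and a prior of 2.12. Fold changes on the log2(value + 1) scale understate those of low genes. The parental tables were fitted on log2(TPM + 1) over all their groups, for genes with at least 1 TPM in 2 libraries. The fitting code was tested on simulated data.

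Named genes followed a rule, leaving out small RNAs and lengths under 500 bases. It took the 12 largest called differences per direction that exceeded 2-fold in each of the 4 F1 libraries, the 5 highest genes per direction with 1 allele at 0, and up to 4 genes per list. It also took up to 5 genes of opposite and of balanced F1 difference by parental size, where balanced was set, with values in view, as within 0.1 log2 units, the 3 largest called X-linked genes per direction, Xist, and genes that the study names as examples. Its part on called changes with IL-4 names no gene, since none was called. One gene that the rule names is not reported here. The members, the 25 gene lists and the 8 marker lists were chosen with earlier results of these data known. Same-numbered basal and IL-4 libraries share only a number.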

Additional observations from a re-analysis of the deposited data

Results flagged for a closer look

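For 8 named genes, every parental library of the table of 5 strains and both basal F1 libraries differed in opposite directions, and this contrast was not tested, because the tables were scaled separately. Toward SPRET in the F1 cells and toward C57 in the parents were Ifitm1, an interferon-induced membrane protein gene (F1 log2 difference -3.29, parental 3.51), and the monocyte chemoattractant gene Ccl2 (-1.47 and 2.56). Phf11d (-1.65 and 2.22), the interferon-induced chaperone gene Rtp4 (-1.55 and 1.94) and the granzyme inhibitor gene Serpinb9 (-1.11 and 1.80) followed. Ifitm1 had 266 recovered counts and Ccl2 62. Toward C57 in the F1 cells and toward SPRET in the parents were Gm6654 (6.05 and -3.50), Rpl32l (8.03 and -2.42) and Ctla2b (2.29 and -1.09). In the time course, the parental difference kept its sign in 7 of the 8 genes, and Ctla2b was higher in C57 parents there (0.66), as in the F1 cells. Gm6654 and Rpl32l overlap another listed gene, and Rpl32l is a copy of a ribosomal protein gene. In all, 18 of 8205 genes were called in opposite directions, 14 of them toward SPRET in the F1 cells.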

How the results depend on the processing

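The count of 623 called genes stayed between 487 and 872 under other pseudocounts, level rules of 1 TPM or none, centering, priors, only the basal libraries and both alleles above 0. Of the 623 genes, 467 were called again with a pseudocount of 5, 480 with no level rule and 586 to 614 in the others. The count was 506, 549 and 634 in 3 alternatives chosen after seeing the data. These left out overlapping genes, left out ribosomal protein genes and genes with a named copy, and required at least 20 counts. A level rule of 20 TPM, which tested 4489 genes, gave 340 (132 toward C57 and 208 toward SPRET), 327 of them among the 623. Leaving out 1 library gave 63 to 671 genes, 13 to 290 toward C57 and 45 to 381 toward SPRET. The low values come from leaving out a basal library (63 without replicate 1 and 68 without replicate 2), when the lone basal library is assumed to vary like the IL-4 pair. For a change of the allele difference with IL-4, the count of 0 became 3 without the trend, an alternative chosen after seeing the data, and 0 to 22 when 1 library was left out (22 without either basal library and 6 without IL-4 replicate 1). A pseudocount of 5 lowered the parental calls among these genes from 1316 to 819.

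For the replicate block, same-numbered deviations correlated at 0.07 over genes, with 2 pairs. With the block, 636 genes were called between the alleles (270 and 366), 0 for a change with IL-4, and 1318 and 1350 between the parents, where the fits without it gave 1316 and 1350.

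Of 41 named allele differences, no called one changed sign. Alternatives that keep every library left 541 of 548 values on their side of the threshold, leaving out an IL-4 library 80 of 82, and leaving out a basal library 22 of 82. Leaving out either IL-4 library leaves the spread to the basal pair, so these 82 values come from 2 nearly equal fits. With 2 basal libraries, low counts limit single genes, and the weighting of the values by the authors could not be undone.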
